A study of Homo sapiens with 2 samples.

Results

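The transforming growth factor β (TGF-β) superfamily components examined here were 50 genes, namely the ligands, receptors, SMAD proteins, intracellular regulators and antagonists of the TGF-β, bone morphogenetic protein (BMP) and activin pathways. They were chosen by name, with earlier results of these data known. Of the 50, 49 were found among the 21743 genes that could be named on the arrays. The exception was NBL1, an extracellular BMP antagonist, to whose transcripts no probe was assigned. RNA came from MRC-5 cells, a fibroblast line established from human fetal lung. The control group was 1 culture transfected with control siRNA, and the knockdown group was 1 culture transfected with periostin siRNA at 10 nM for 48 h. The labels state no dose for the control siRNA, and no genetic change separated the groups. Each culture was measured on 1 single-colour Agilent array, which leaves the differences without a test, a p-value or a replicate check.

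These pathways work as chains. A secreted dimer binds a pair of type II and type I receptor kinases, the type I kinase phosphorylates a receptor-regulated SMAD, and this SMAD enters the nucleus with SMAD4 to switch genes on or off. TGF-β and activin act mainly through SMAD2 and SMAD3, whereas BMPs and several growth and differentiation factors (GDFs) act through SMAD1, SMAD5 and SMAD9. Antagonists outside the cell trap the ligands, and SMAD6, SMAD7 and the SMURF ubiquitin ligases damp the signal inside it. In lung fibroblasts TGF-β is known for driving matrix production and the myofibroblast state, and BMPs for switching on the ID genes.

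A signal is given here as the background-subtracted brightness of a spot, scaled so that both arrays share the same 75th percentile. The log2 ratio is periostin siRNA over control siRNA, so that a negative value is lower after knockdown. Its error is the SD over 10 spots where a probe was printed 10 times (TGFB1 and INHBA) and otherwise the error that the scanner software propagates for a single spot. This error was close to 0.20 for bright spots, and it covers the spots and not the difference between cultures. Fewer cells of a kind and less RNA per cell cannot be told apart in such samples. The signal was well above background for 58.0% of the 58717 spots with control siRNA and 58.9% with periostin siRNA, and 0 spots were saturated. POSTN itself, the target of the siRNA, had a signal of 2638 in control cells and 280 after periostin siRNA. Of 10 fibroblast markers, 10 were well above background on both arrays and lay within 2-fold. Among markers of other cell types, the summed signal of 5 epithelial markers was 96.8 in control cells and 196 after periostin siRNA, of which EPCAM accounted for 34.6 and 135, while CLDN18 was well above background with control siRNA alone (24.7) and CDH1 and KRT5 were below background on both arrays. The summed signal of 6 immune markers was 314 and 595, of which CD14 accounted for 287 and 549, while HLA-DRA, LAPTM5 and MS4A1 were below background on both. The part of these markers in the values below was not tested.

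Of the 49 components, 42 were well above background on both arrays, 1 with control siRNA alone and 6 on neither. The 6 were BMP7, BMP8A, GDF10, INHBB, BMPR1B and CHRDL1, for which no ratio is given. For the remaining 43 the median log2 ratio was 0.03, beside 0.06 over the 16052 genes with a ratio. The components spread widely around this median, with 21 below 0 and 22 above it. The ratio was past 3-fold, the size the study used, for 8 components, 3 lower and 5 higher, which was 18.6% of the 43. Over all genes with a ratio 6.12% were past 3-fold, 2.75% lower and 3.37% higher. At 2-fold or more, 7 components were lower and 9 higher, which was 37.2% of the 43, beside 14.4% of all genes (6.42% lower and 7.97% higher). By role, 9 of the 12 ligands with a ratio were past 2-fold, 3 of 11 receptors, 0 of 8 SMADs, 1 of 5 intracellular regulators and 3 of 7 antagonists.

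**Figure D1:**
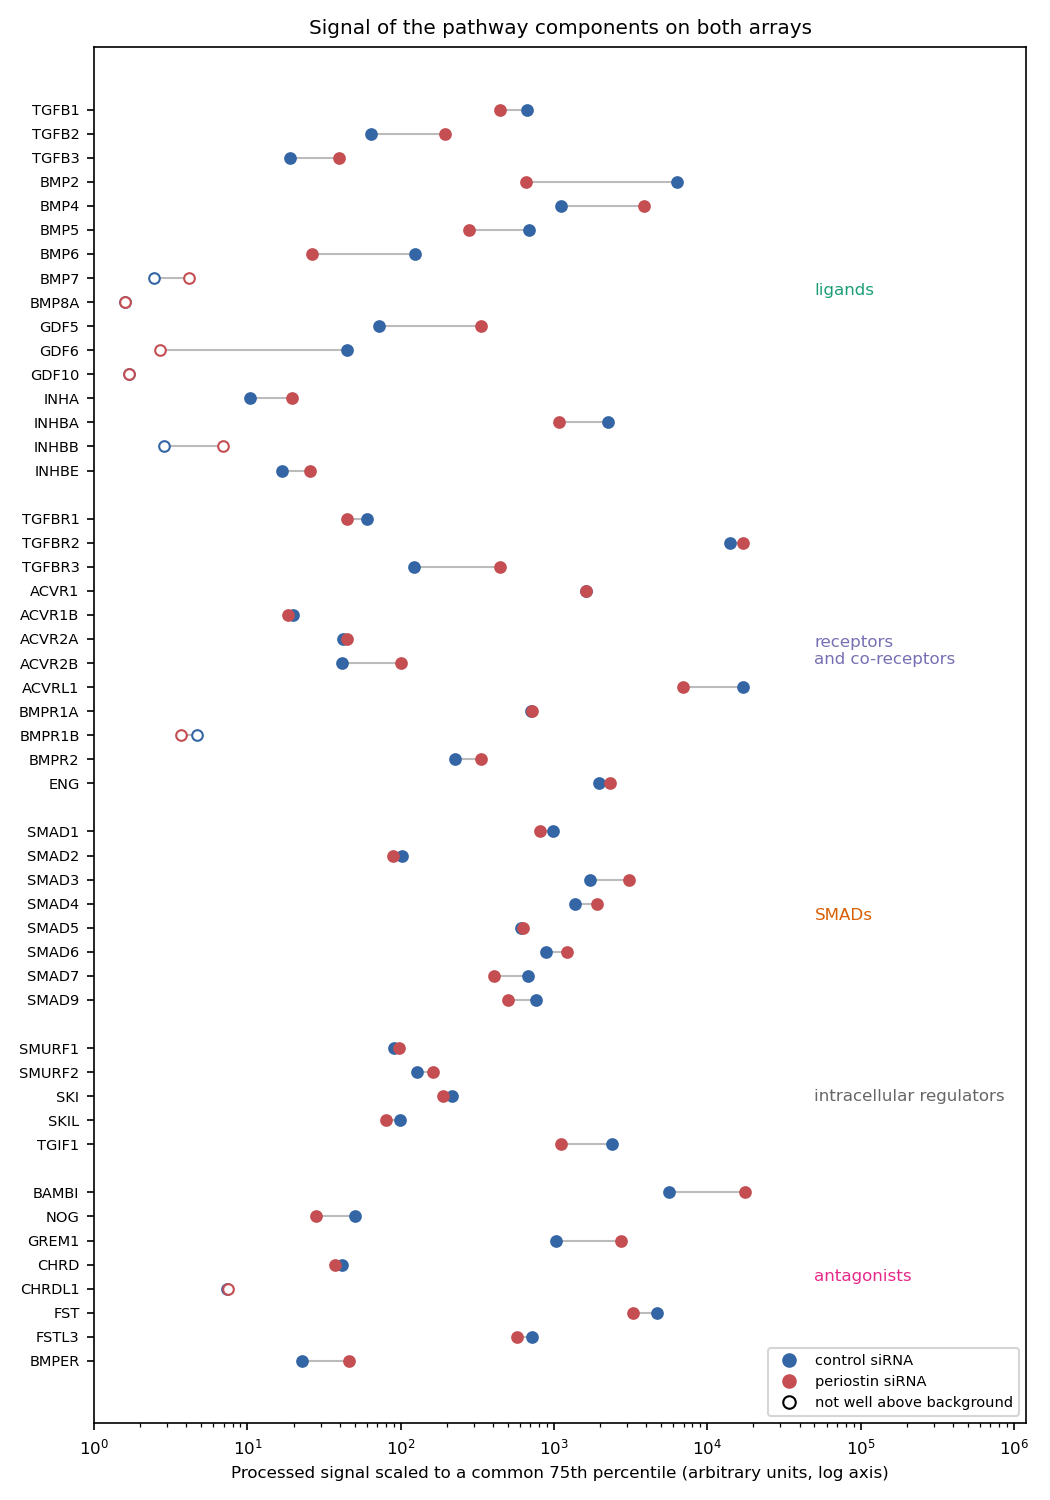
Signal of each of the 49 pathway components (rows, grouped by role) with control siRNA (blue) and periostin siRNA (red), scaled to a common 75th percentile in arbitrary units on a log axis, with 1 array per condition. Open circles are signals not well above background, and the widest gaps between the points of a row are those of GDF6, from 44.8 to a background signal, and BMP2, from 6344 to 655.

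**Figure D2:**
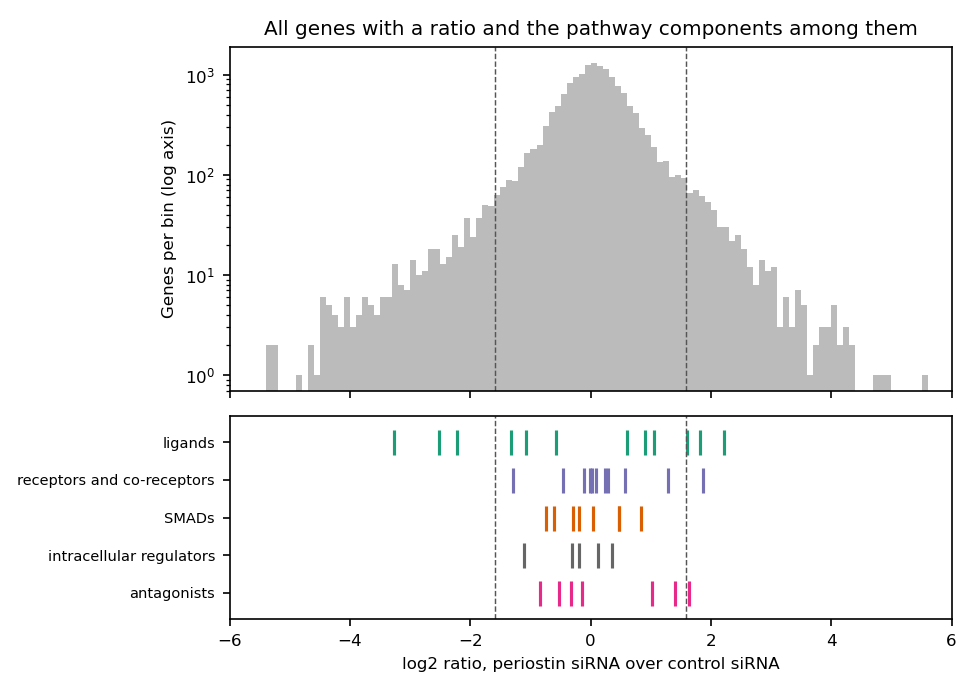
The upper panel counts the 16052 genes with a ratio by log2 ratio (periostin siRNA over control siRNA), with the number of genes per bin on a log axis, and the lower panel marks each of the 43 pathway components with a ratio, by role. Dashed lines stand at 3-fold in either direction, beyond which lie 6 ligands, 1 receptor and 1 antagonist.

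The BMP-type ligands lay far to both sides of 0. Of the 8 in the list, 6 had a ratio and each of the 6 was past 2-fold, 4 lower (BMP2, BMP6, BMP5 and GDF6) and 2 higher (BMP4 and GDF5). GDF6 is counted from a bound. Over all genes with a ratio, 6.42% were lower and 7.97% higher by 2-fold or more. BMP2, a classical inducer of bone and a direct activator of the SMAD1 branch, had a signal of 6344 in control cells and 655 after periostin siRNA, which is 9.69-fold lower (log2 ratio -3.28 ± 0.20, propagated spot error). BMP4, its closest relative, binds the same receptors and had a signal of 1103 in control cells and 3881 after periostin siRNA, 3.52-fold higher (1.82 ± 0.20). The log2 ratio of BMP2 minus that of BMP4 was -5.09, with a spot error of 0.29 for the difference. These close relatives thus lay on opposite sides of 0, and this pair, like those compared below, was picked after its values were seen.

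BMP5 and BMP6 belong to a second branch of the family that signals largely through ACVR1. BMP6 had a signal of 124 in control cells and 26.5 after periostin siRNA, a log2 ratio of -2.22 ± 0.22. BMP5 had 692 and 277, a log2 ratio of -1.32 ± 0.20. Both were lower after knockdown. GDF5 and GDF6, known from joint and cartilage formation, were on opposite sides. GDF5 had 72.0 in control cells and 336 after periostin siRNA, 4.67-fold higher (2.22 ± 0.21). GDF6 had 44.8 with control siRNA and was not well above background with periostin siRNA. Taking the dimmest signal well above background on that array, 7.77, as the limit, GDF6 was 5.77-fold lower. Some signals not well above background on that array were brighter (10.1 for a CHRD probe), so a smaller fold is possible. Each of these 6 ligands rests on 1 spot, and none of these spots carried an outlier flag. Under the normexp background correction, which adds an offset of 50 and so draws dim signals together, BMP6 gave -1.16 and GDF6 -0.80, both under 3-fold, whereas BMP2 gave -3.12, BMP4 1.74 and GDF5 1.60.

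The TGF-β isoforms also differed among themselves. TGFB1, the isoform most often tied to fibrosis, had a signal of 663 in control cells and 443 after periostin siRNA, a log2 ratio of -0.58 ± 0.05 (SD over 10 spots). TGFB2 had 64.2 and 194, a log2 ratio of 1.59 ± 0.21, or 3.02-fold higher, and TGFB3 had 19.0 and 39.7, a log2 ratio of 1.06 ± 0.26. The log2 ratio of TGFB1 minus that of TGFB2 was -2.18 (spot error of the difference 0.21), and that of TGFB1 minus TGFB3 was -1.64 (0.27). That of TGFB2 minus TGFB3 was 0.54 (0.33). TGFB2 and TGFB3 were dim on both arrays, and with the normexp correction they gave 1.01 and 0.31.

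Of the activin and inhibin subunits, INHBA, which forms activin A, had a signal of 2260 in control cells and 1072 after periostin siRNA, a log2 ratio of -1.08 ± 0.06 (SD over 10 spots, 1 or more of which carried an outlier flag). INHA, the subunit that turns an activin into an inhibin, had 10.4 and 19.5 (0.91 ± 0.34), and INHBE had 16.7 and 25.5 (0.61 ± 0.28). These last signals lay close to the background limit of the arrays, and neither was past 2-fold.

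**Figure D3:**
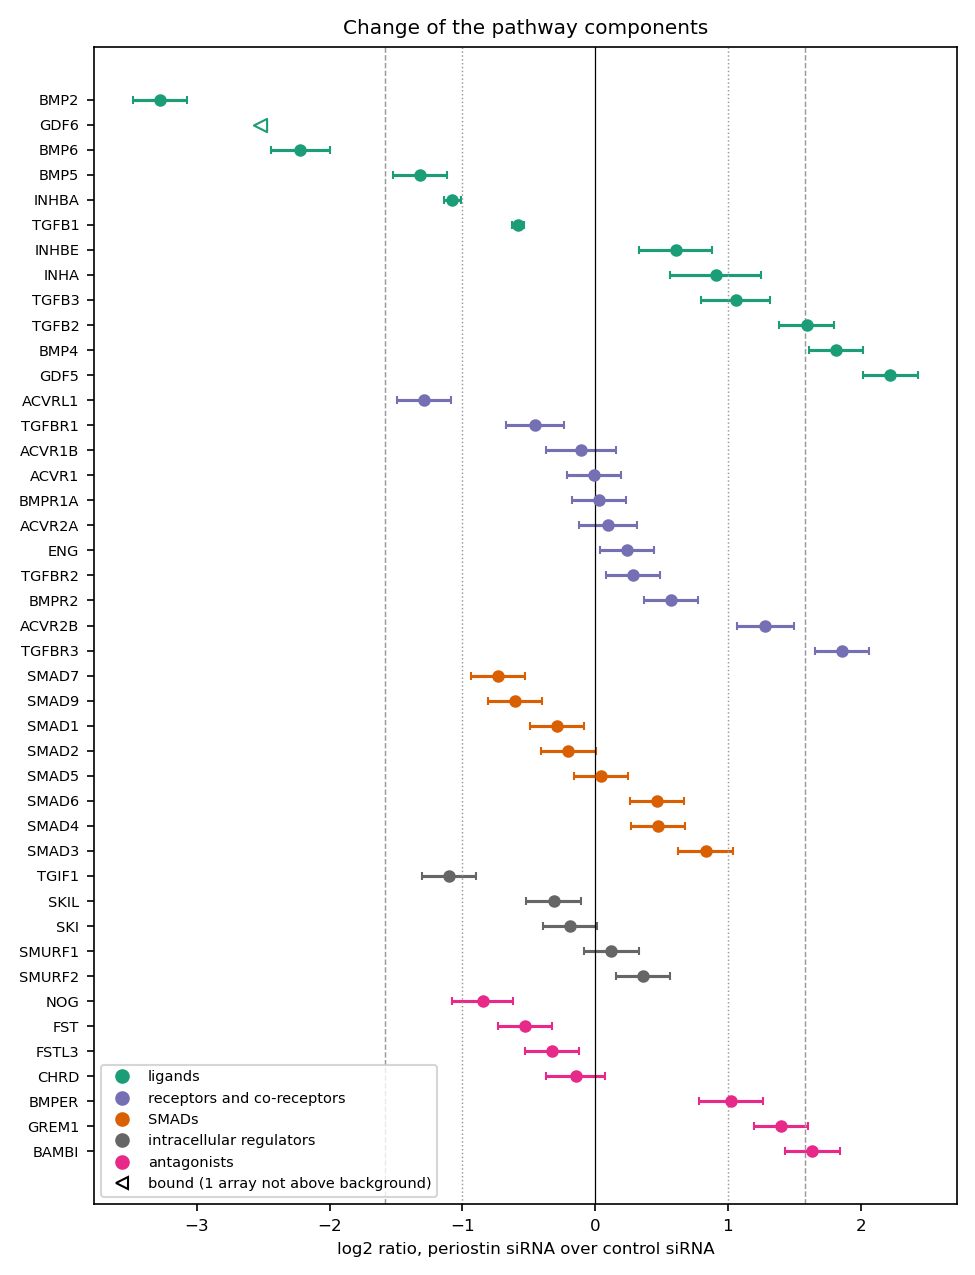
Log2 ratio (periostin siRNA over control siRNA) of the 43 components with a ratio, sorted within each role, with 1 array per condition. Bars are the SD over 10 spots for TGFB1 and INHBA and the propagated error of 1 spot for the others, the open triangle is the bound for GDF6, and dotted and dashed lines stand at 2-fold and 3-fold, with BMP2 at -3.28 and GDF5 at 2.22 as the outermost measured values.

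Of 11 receptors with a ratio, 1 was lower and 2 were higher by 2-fold or more, beside 6.42% and 7.97% of all genes. The other 8 lay within 2-fold. Among them were the BMP type I receptors BMPR1A at 0.03 and ACVR1 at -0.01, and the BMP type II receptor BMPR2 at 0.57. TGFBR2 was at 0.28, TGFBR1 at -0.45, the activin receptors ACVR1B at -0.11 and ACVR2A at 0.10, and the co-receptor ENG at 0.24. The spot errors of these ratios were 0.20 to 0.26. BMPR1A was read by 5 probes, whose log2 ratios lay between -0.06 and 0.28, and the other ACVR1 probe gave 0.06. The receptor that was lower by 2-fold was ACVRL1, a type I receptor for BMP9 and BMP10 best known from endothelium, with 17058 in control cells and 6983 after periostin siRNA (-1.29 ± 0.20). The log2 ratio of ACVR1 minus that of ACVRL1 was 1.28 (spot error of the difference 0.29).

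A pair of receptors were higher by 2-fold or more. TGFBR3, or betaglycan, which presents TGF-β2 to the signalling receptors and also binds inhibin, had 123 in control cells and 445 after periostin siRNA (1.86 ± 0.21). ACVR2B, a type II receptor shared by activins and BMPs, had 41.4 and 101 (1.28 ± 0.21), and the log2 ratio of ACVR2A minus that of ACVR2B was -1.19 (spot error of the difference 0.31). Under the normexp correction TGFBR3 gave 1.48 and ACVR2B 0.72.

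The 8 SMADs were well above background on both arrays and lay within 2-fold, from -0.73 to 0.83. Of the BMP-regulated SMADs, SMAD1 had 984 in control cells and 807 after periostin siRNA (-0.29), SMAD5 had 609 and 628 (0.04) and SMAD9 had 765 and 504 (-0.60), each with a spot error of 0.20. A second SMAD9 probe, on another transcript, gave -0.67. SMAD3, which carries TGF-β and activin signals, had 1729 and 3077 (0.83 ± 0.20), and its partner SMAD2 had 103 and 89.3 (-0.20 ± 0.21). The log2 ratio of SMAD2 minus that of SMAD3 was -1.03 (spot error of the difference 0.29). SMAD4, the common partner, gave 0.47, and its other probes gave 0.61 and 0.21. The inhibitory SMADs lay on opposite sides of 0. SMAD6, which blocks mainly the BMP branch, had 884 in control cells and 1221 after periostin siRNA (0.47 ± 0.20), and SMAD7, which blocks both branches, had 675 and 406 (-0.73 ± 0.20). The log2 ratio of SMAD6 minus that of SMAD7 was 1.20 (spot error of the difference 0.29).

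Among the intracellular regulators SMURF1 gave 0.12, SMURF2 0.36, and the SMAD corepressors SKI and SKIL -0.19 and -0.31, with spot errors of 0.21. The exception was TGIF1, another nuclear corepressor of TGF-β responses. Its brightest probe had 2392 in control cells and 1113 after periostin siRNA (-1.10 ± 0.20) and another probe for the same transcript had 1093 and 500 (-1.13). A dimmer probe assigned to a different TGIF1 transcript, however, had 121 and 109, a log2 ratio of -0.15. The probes of this gene thus differed, and whether they read separate transcripts was not tested.

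Among the antagonists, 3 of the 7 with a ratio were higher by 2-fold or more and none was lower by 2-fold. Over all genes with a ratio these shares were 7.97% and 6.42%. GREM1, which traps BMP2 and BMP4 outside the cell, had 1038 in control cells and 2746 after periostin siRNA (1.40 ± 0.20), and its other probe, on a different transcript, had 167 and 421 (1.34). BAMBI, a receptor-like membrane protein without a kinase that blocks type I receptors, had 5629 and 17511, 3.11-fold higher (1.64 ± 0.20). BMPER, which binds BMPs and can hinder or help them, had 22.7 and 46.1 (1.02 ± 0.24), while its other probe was not well above background on either array and the normexp correction brought it to 0.31. NOG, or noggin, pointed the other way from a dim signal, with 50.7 and 28.2 (-0.85 ± 0.23). CHRD, or chordin, had 41.2 and 37.2 (-0.15 ± 0.22). The activin-binding FST had 4704 and 3260 (-0.53 ± 0.20) and FSTL3 had 717 and 573 (-0.32 ± 0.20).

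For the BMP branch the components thus stood side by side as follows. BMP2, BMP5, BMP6, GDF6 and the receptor ACVRL1 were lower by 2-fold or more, and BMP4, GDF5, the type II receptor ACVR2B, the inhibitors GREM1 and BAMBI and the BMP-binding BMPER were higher by 2-fold or more. The receptors BMPR1A, ACVR1 and BMPR2 and the transducers SMAD1, SMAD5, SMAD9 and SMAD4 lay within 2-fold, as did the antagonists NOG, at -0.85, and CHRD, at -0.15. The inhibitory SMAD6, at 0.47, and SMAD7, at -0.73, lay within 2-fold too, as did SMURF1, at 0.12, and SMURF2, at 0.36. RNA was measured and not protein, so the balance of ligand and antagonist outside the cells was not.

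The output of the branch was followed in 17 genes known to be switched on by BMPs, of which 5 (SMAD6, SMAD7, SMAD9, BAMBI and NOG) are themselves components. Of the 12 that are not, 10 had a ratio, with a median log2 ratio of -1.85. Of these 10, 6 were lower by more than 3-fold and 0 higher, beside 2.75% and 3.37% of all genes. The list, ID genes included, was chosen with earlier results of these data known. With the components included, 15 genes had a ratio and the median was -0.85. ID1, ID2, ID3 and ID4, which hold back basic helix-loop-helix transcription factors, had ratios of -4.57, -2.43, -3.49 and -1.87. ID1 had a signal of 22368 in control cells and 944 after periostin siRNA. ATOH8 had 822 and 233 (-1.82) and MSX1 had 55.8 and 26.9 (-1.05). HEY1 had 29.2 in control cells and was not well above background after periostin siRNA. With the limit used for GDF6 it was 3.76-fold lower, and a smaller fold is possible. With the normexp correction ATOH8 gave -1.50, ID4 -0.75, MSX1 -0.48 and HEY1 -0.29, which left 3 genes (ID1, ID2 and ID3) lower by more than 3-fold and 4 by 2-fold or more. RUNX2 at -0.10, MSX2 at -0.07 and SP7 at 0.24 lay within 2-fold, and DLX2 and DLX5 were below background on both arrays. Of the 5 output genes that are components, 3 were on the same side as the ID genes but within 2-fold, namely NOG at -0.85, SMAD7 at -0.73 and SMAD9 at -0.60. SMAD6 at 0.47 and BAMBI at 1.64 were on the other side. NOG, SMAD7, SMAD6 and BAMBI are all brakes on the pathway, so that the brakes lay on both sides of 0.

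Among 18 genes known to be switched on by TGF-β, each of which had a ratio, the median was -0.14. Without the components SMAD7 and SKIL, the median of the other 16 was -0.07. Of the 18, 2 were lower and 3 higher by 2-fold or more, beside 6.42% and 7.97% of all genes. CCN2, a matricellular protein, had 2588 in control cells and 979 after periostin siRNA (-1.40) and the cytokine IL11 had 522 and 207 (-1.33). On the other side, the smooth muscle genes TAGLN and ACTA2 had ratios of 1.37 and 1.08 (1.24 and 0.95 when scaled on the median), and the cartilage matrix gene COMP had 22.9 and 77.0 (1.75), or 0.83 with the normexp correction. COL1A1 at -0.54 and COL1A2 at -0.21 lay within 2-fold.

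**Figure D4:**
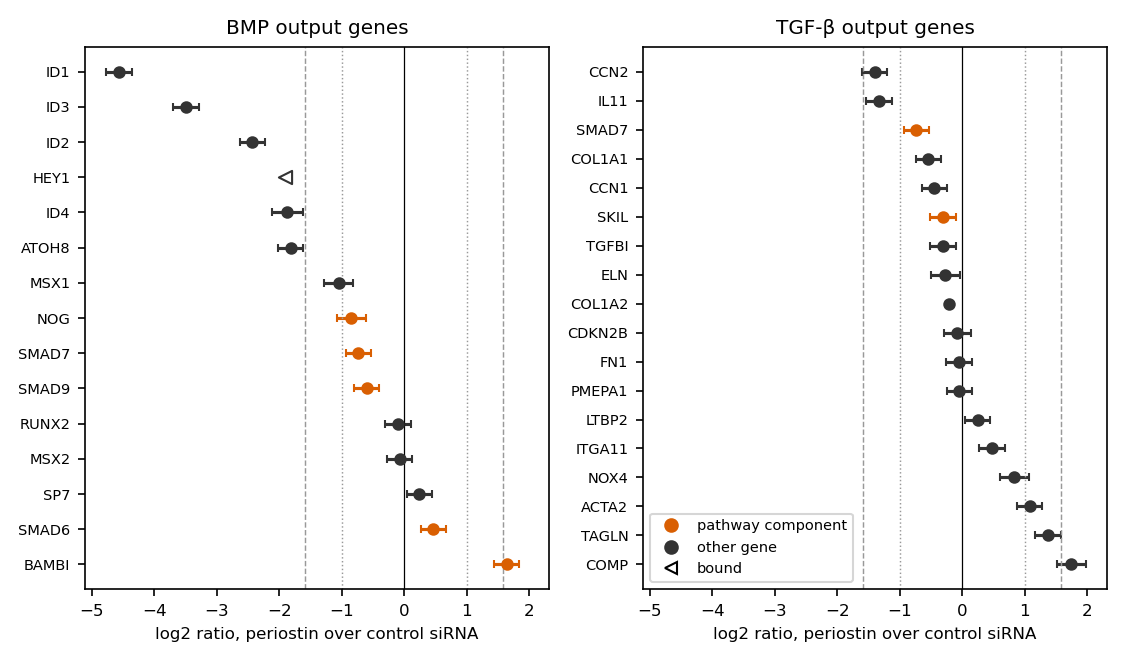
Log2 ratio (periostin siRNA over control siRNA) of genes known to be switched on by BMPs (left, 15 of 17 with a ratio) and by TGF-β (right, 18 genes), with bars for the spot error, an open triangle for a bound and 1 array per condition. Pathway components are orange and other genes dark, and the ID genes lie at the low end of the left panel while SMAD6 and BAMBI lie at its high end.

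Promoters were looked up because SMAD6 and BAMBI differed from the ID genes in direction. The windows of RefSeq (GRCh38.p14) run from 250 bases before to 50 bases after a transcription start, and 43 of the 50 components matched 82 of them. The others were BMP2, BMP7, GDF6, INHBE, ACVRL1, SKI and NOG. They were searched on both strands for GTCTAGAC, the palindromic SMAD site, for AGCCAGACA, the CAGA box, and for GGCGCC, a GC-rich site of BMP-regulated SMADs. None of the 4 windows shown holds more than 1 of these 3 motifs. GTCTAGAC was in 1 of the 82 windows, that of SMAD6, and in 0.202% of the 35116 windows of all genes. GGCGCC was in 22 of the 82 windows, or 26.8%, beside 19.2% of all windows, and AGCCAGACA in 0 of 82 beside 0.288%. The 22 windows belonged to 19 components. Of these, 8 had a ratio above 0 (BMP4, BAMBI, GREM1, BMPER, SMAD3, BMPR2, SMAD4 and SMAD5) and 8 a ratio below it (TGFBR1, FSTL3, SKIL, SMAD1, SMAD2, CHRD, ACVR1B and ACVR1). At 2-fold or more, 4 of the carriers were higher and 0 lower. Of the 43 components with a ratio 20.9% were higher by 2-fold or more. Of all genes 7.97% were higher and 6.42% lower. Whether the motif goes with a direction was not tested. BMP2, GDF6 and ACVRL1, which were lower by 2-fold or more, had no window to search. None of these motifs was in the windows of ID1, ID2, ID3 or ID4, with 1 window each. Sequence outside the windows was not searched, so sites farther from the start would be missed. The windows of SMAD6, BAMBI, BMP4 and GREM1 are shown with the motifs in capitals, SMAD6 for the palindromic site and the others as carriers of GGCGCC that were higher by 2-fold or more. BMPER, which also met this, is not shown. A match is a description of the letters and shows no binding.
BAMBI, chr10:28677271-28677570, plus strand, 3 GGCGCC: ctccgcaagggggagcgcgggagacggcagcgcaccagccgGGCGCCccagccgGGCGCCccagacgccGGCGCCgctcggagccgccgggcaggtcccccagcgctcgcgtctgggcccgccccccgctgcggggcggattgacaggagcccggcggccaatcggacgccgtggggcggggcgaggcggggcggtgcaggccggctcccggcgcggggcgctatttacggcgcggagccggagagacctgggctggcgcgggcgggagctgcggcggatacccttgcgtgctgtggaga
SMAD6, chr15:66701986-66702285, plus strand, 1 GTCTAGAC: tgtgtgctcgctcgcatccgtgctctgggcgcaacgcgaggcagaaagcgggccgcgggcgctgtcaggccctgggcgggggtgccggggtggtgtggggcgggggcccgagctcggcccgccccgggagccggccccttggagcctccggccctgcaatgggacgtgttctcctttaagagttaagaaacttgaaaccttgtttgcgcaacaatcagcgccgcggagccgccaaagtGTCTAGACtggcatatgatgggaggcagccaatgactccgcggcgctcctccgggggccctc
BMP4, chr14:53955001-53955300, minus strand, 2 GGCGCC: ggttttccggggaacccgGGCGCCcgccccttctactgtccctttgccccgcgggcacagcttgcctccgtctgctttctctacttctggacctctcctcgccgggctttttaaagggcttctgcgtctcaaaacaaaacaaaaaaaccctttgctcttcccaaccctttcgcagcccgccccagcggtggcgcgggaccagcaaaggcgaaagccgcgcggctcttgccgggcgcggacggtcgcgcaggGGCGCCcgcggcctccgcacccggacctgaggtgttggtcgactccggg
GREM1, chr15:32717754-32718053, plus strand, 2 GGCGCC: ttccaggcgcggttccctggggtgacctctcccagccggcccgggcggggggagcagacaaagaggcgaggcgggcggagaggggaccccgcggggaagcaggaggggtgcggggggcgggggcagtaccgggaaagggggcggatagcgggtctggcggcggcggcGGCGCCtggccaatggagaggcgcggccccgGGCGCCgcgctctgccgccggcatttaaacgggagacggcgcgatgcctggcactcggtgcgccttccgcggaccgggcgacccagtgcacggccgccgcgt
BMP4 and GREM1 have further starts whose windows are not shown, 3 windows in all for BMP4 and 2 for GREM1.

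A further 92 genes of the pathway were listed by role. Of 90 that were named, 66 had a ratio, with a median of 0.09 beside 0.06 over all genes, and 7 (10.6%) were higher by 2-fold or more, against 7.97% of all genes. Of these, WFIKKN2, an extracellular antagonist which binds myostatin and GDF11, had a background signal with control siRNA and 83.9 with periostin siRNA. With the limit of 7.55 for the control array it was 11.1-fold higher. The normexp correction gave a log2 ratio of 1.03 and the mean over its probes 0.69, under 2-fold. TWSG1, a partner of chordin, had 1874 and 3799 (1.02), or 0.89 when the arrays were scaled on the median.

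Of 17 genes for keeping TGF-β latent or activating it, 13 had a ratio and 2 (15.4%) were higher by 2-fold or more, against 7.97% of all genes. LRRC32, which tethers latent TGF-β to the membrane, had 61.2 in control cells and 243 after periostin siRNA (1.99 ± 0.21), and ITGB8, a chain of an integrin that activates latent TGF-β, had 71.5 and 154 (1.11). With the normexp correction LRRC32 gave 1.35, under 3-fold, and ITGB8 gave 0.66, under 2-fold. The integrin chains ITGAV at -0.06 and ITGB3 at 0.35, which form a periostin receptor, lay within 2-fold, as did LTBP1, which holds latent TGF-β in the matrix, at -0.01. NRP1, a TGF-β co-receptor, had 626 and 1676 (1.42, or 0.99 as the mean over its probes), and NEDD4L, a ubiquitin ligase for activated SMAD2 and SMAD3, had 619 and 1688 (1.45). LEFTY1, an inhibitor of nodal, was above background with periostin siRNA alone and 2.62-fold higher with the limit for the control array, but the normexp correction gave a log2 ratio of 0.28. BMP8B, whose sequence is nearly that of BMP8A, had 6456 and 4309 (-0.58, or -0.29 as the mean over its probes), while the BMP8A probe was below background on both arrays. The 32 named cytoplasmic and nuclear partners had a median of 0.01 and 31 of them lay within 2-fold.

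The 16 components past 2-fold were followed through 10 other ways of processing the same arrays. Each of the 16 kept its side of 0, but several came under a threshold. With normexp TGFB3, BMPER, ACVR2B and GDF6 came under 2-fold, and TGFB2, TGFBR3 and BMP6 under 3-fold. TGFB3 was under 2-fold with quantile normalization, scaling on the median and loess too (0.93 to 0.98), and BMPER with these and with the mean over probes (0.51 to 0.94), while the mean over probes took TGIF1 to -0.79. BAMBI and TGFB2 were also under 3-fold when the arrays were scaled on the median, with log2 ratios of 1.51 and 1.47. BMP2, BMP4 and GDF5 were past 3-fold under each of the 10.

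**Figure D5:**
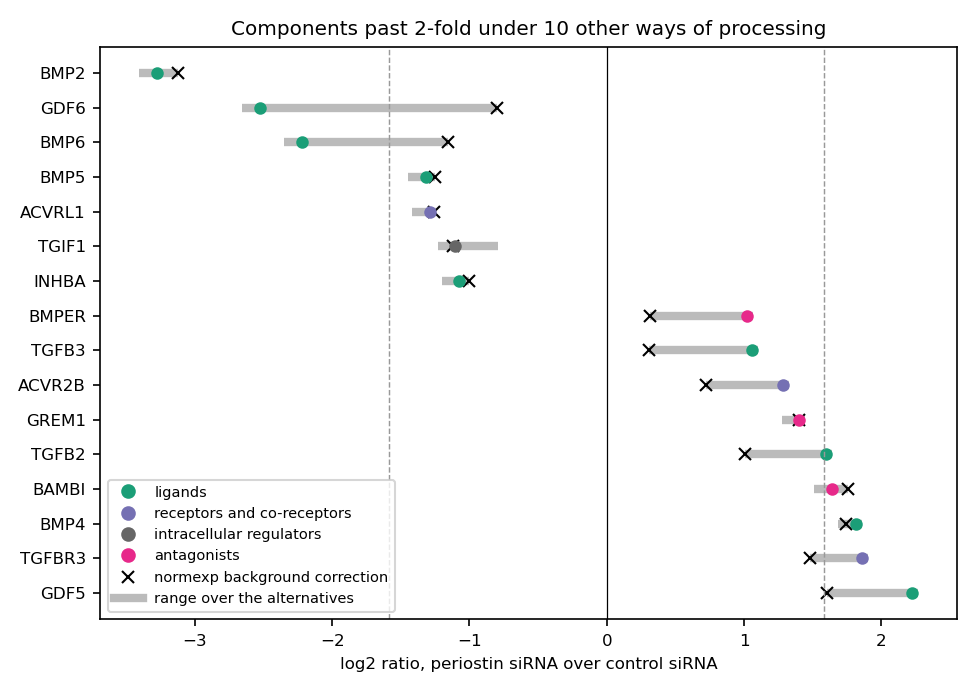
Log2 ratio (periostin siRNA over control siRNA) of the 16 components past 2-fold, as reported (coloured by role) and over 10 other ways of processing the same arrays (grey bar), with the normexp background correction as a cross and dashed lines at 3-fold. No bar crosses 0, and BMP2, BMP4 and GDF5 are the components whose whole bar lies past 3-fold.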

How the data were processed

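RNA of 1 culture per condition was labelled with Cy3 and hybridized to 1 Agilent array each. The authors deposited the scanner files, whose intensity values carry the background subtraction and spatial detrending of Feature Extraction 11.5.1.1 per the file headers (12.0.3.1 in the submitters' processing notes). Their table of normalized intensity holds the same signals times 1 constant per array for probes printed once. The flag columns used here, kept as other values of 0 or 1, were also deposited. The files name hg19 as the build of the array design.

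The log2 of the processed signal was taken and from it that array's 75th percentile over 58717 spots, control spots left out, was subtracted (372 in control cells and 383 after periostin siRNA, unscaled). Printed signals are on the common percentile of 377. Spots of a probe were averaged. Probes were named through their RefSeq accession (GRCh38.p14, 65.1% of spots), and the brightest probe stood for a gene. If 1 array alone measured a probe well above background, the ratio is a bound, set by the dim array's own signal or by its dimmest detected probe, whichever was higher (7.55 in control cells and 7.77 after periostin siRNA). Some probes not well above background were brighter than this limit, so such a bound is approximate. Probes below background on both have no ratio.

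Python 3.11.15, numpy 2.4.6, pandas 2.3.3, matplotlib 3.10.9, R 4.3.3 and limma 3.58.1 were used. The steps were tested on simulated data. Over 667 probes measured well above background on both arrays in 10 spots each, the pooled SD of the log2 ratio between spots was 0.12. The number of arrays limits the precision. The components, lists and thresholds were chosen with earlier results of these data known, and the pairs of related genes compared were picked after their values were seen. Some genes of the lists are not reported here and enter none of the counts of those lists, so that these counts cover the remaining genes. Components at 2-fold or more are given with both signals, the TGF-β isoforms always, and of the other lists those past 3-fold, with further genes chosen after their values were seen. The alternatives were normexp (offset 50, on the median spot brightness), quantile normalization, unscaled values, scaling by the median or by spots well above background on both arrays, loess with a span of 0.3, the deposited table, the mean over probes, filters on dim and on flagged spots, and thresholds of 2-fold and 4-fold.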

Additional observations from a re-analysis of the deposited data

How the results depend on the processing

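No paired analysis was possible because there is a single array per condition, and no replicate could be left out in turn. Of the 43 components with a ratio, 5 changed sign under some setting (ACVR1, ACVR2A, BMPR1A, SMAD5 and SMURF1, all close to 0), and none of the 16 past 2-fold did. The log2 ratio of BMP2 ranged from -3.40 to -3.12, that of BMP4 from 1.69 to 1.86 and that of GDF5 from 1.60 to 2.27. Components past 3-fold numbered 3 lower and 5 higher. The normexp correction left 1 lower and 3 higher, scaling on the median left 3 higher, a threshold of 2-fold gave 7 lower and 9 higher, and a threshold of 4-fold left 1 higher. TGFB2, at 3.02-fold, was past 3-fold under 6 of the 10 alternatives, and BAMBI under 9. The median of the ligands, 0.01, was -0.22 under normexp and 0.61 when only probes well above background on both arrays were kept, which leaves out GDF6. Scaling on the median moved the median of all genes by -0.13. The offset of normexp pulls dim probes together by construction, and 14 of the 43 ratios moved by more than their spot error under it. The mean over probes gave -0.79 for TGIF1. Dim signals limit GDF6, TGFB3, INHA, INHBE and BMPER.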
